A study of Homo sapiens with 12 samples.

Results

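The comparison described here asks where the RNA of extracellular vesicles (EVs) changed with low oxygen in another way than the RNA of the cells that released them. EVs are membrane particles shed by cells that carry a sample of cellular RNA. For each gene the hypoxia response of the EVs (hypoxia EVs minus normoxia EVs) was taken less the hypoxia response of the cells (hypoxia cells minus normoxia cells), on a scale of log2(value + 1), and this difference is called the interaction below. A negative interaction means that the EV response lay below the cell response, and a positive one that it lay above. All 12 libraries of the series enter it, 3 in each of 4 groups. HEK293, an established line from human embryonic kidney, was kept in medium with 10% serum, from which the EVs were taken. All 4 groups, the controls included, carried the 4EC1 plasmid, whose parts are named eGFP, EIF4E, YTHDF1/GBP1 and CD9, brought in by lipofection for 48 h. The hypoxia groups then spent 24 h in a hypoxia chamber and the normoxia groups did not, and the sources used here do not give the oxygen level. Cell RNA was isolated with TRIzol, EV RNA with an exoRNeasy kit, and both were made into stranded libraries of total RNA. Whether the replicates of a group came from different cultures is not stated, and the p-values therefore cover the spread among these 12 libraries alone, which may be technical.

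Cells sense oxygen through prolyl hydroxylases that mark the HIF alpha subunits for destruction by the VHL ubiquitin ligase. When oxygen is short, the marking stops, and HIF alpha pairs with its constitutive partner and binds DNA, for example at the core ACGTG. Genes for glucose uptake, glycolysis, angiogenic hormones, mitophagy and lipid storage are then transcribed. The mRNAs of these genes therefore report on oxygen supply, and the design asks whether RNA collected outside the cells reports the same.

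The libraries differed in ways that touch the values below. The depth was 18059381 to 23400813 reads in cells, 5266244 to 7001767 in the EVs of normoxia and 3259453 to 6129782 in those of hypoxia. On 6599 protein-coding genes that were almost silent in the cells (a mean of at most 20), the summed level per kb was 1.30 to 1.97 in the cell libraries and 16.3, 16.9 and 17.5 in the 3 hypoxia EV libraries. It was 4.79, 6.92 and 11.7 in replicates 1, 2 and 3 of the normoxia EVs, so the third replicate lay between its own group and the hypoxia EVs. The 7 measured HEK293 markers summed to 14286 to 14998 in normoxia cells, 8926 to 9247 in hypoxia cells, 11817 to 18359 in normoxia EVs and 8608 to 9342 in hypoxia EVs, and none of the 7 was at 0 in any group. The 12 blood markers summed to 24.1 to 44.1 in cells, 124 to 242 in normoxia EVs and 349 to 429 in hypoxia EVs, and the 8 liver and plasma protein markers to 36.0 to 74.1, 117 to 362 and 531 to 711, with no marker at 0 throughout a group. The 350 olfactory receptor genes, which kidney cells are not known to use, summed to 325 to 727 in cells, 1261 to 4202 in normoxia EVs and 6808 to 7664 in hypoxia EVs. The part that this rise of near-silent genes played in each result was not tested by these sums, and fits with it subtracted are given beside the results.

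Among 24171 genes with a mean of at least 10, the interaction passed the threshold (limma-trend, Benjamini-Hochberg adjusted p under 0.05) downward for 452 genes (1.87%) and upward for 107 (0.443%), 2.31% in either direction. The 3 largest groups of lower calls were 259 genes that fell in the EVs with no call in the cells, 83 that rose in the cells with no call in the EVs, and 81 that rose in the cells and fell in the EVs. A further 22 fell in both, and 7 passed neither single response. Of the 107 higher calls, 47 rose in the EVs with no call in the cells, 32 fell in the cells with no call in the EVs, 11 fell in the cells and rose in the EVs, and 17 passed neither. Over the same genes 1207 rose (4.99%) and 3435 fell (14.2%) in the cells, and 1219 rose (5.04%) and 1794 fell (7.42%) in the EVs. The hypoxia and normoxia groups did not overlap for 32.3% of these genes in the cells and 39.1% in the EVs. A lack of overlap, given for single genes below, was therefore common. The counts moved with the libraries used: without any single cell library 34 to 75 lower and 2 to 8 higher calls remained significant, and without normoxia EV replicate 3 there were 3158 and 2338. They also moved with the scaling. With all libraries brought to equal totals the split was 151 lower and 475 higher in the interaction, 2012 higher and 1789 lower in the cells, and 3384 higher and 173 lower in the EVs.

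Hypoxia target mRNAs stood out by number among the lower calls. This list and the gene lists below were chosen with earlier results of these data known. Their shares are therefore descriptions and not tests. All 69 genes of the HIF target list were tested, and 25 (36.2%) passed downward, where 1.87% of all genes did, and 0 upward in limma (1 at an unadjusted p under 0.05, 0 in edgeR and 1 in DESeq2). In the cells 51 of the 69 rose (4.99% of all genes) and 1 fell (14.2% of all genes). In the EVs 1 rose, ENO2, and 4 fell, where 5.04% of all genes rose and 7.42% fell. The median cell response of the list was 0.94, the median EV response 0.13 and the median interaction -0.81, beside -0.01, 0.37 and 0.23 over all genes. Among genes with a mean of at least 100 the list kept 58 members, 25 of them lower (43.1%, against 4.16% of all 10750 such genes lower and 0.502% higher), with a median EV response of -0.04 beside -0.42 over all of them. As a share of all RNA, the 69 mRNAs together went from 0.639% ± 0.00466 to 1.21% ± 0.0242 in the cells, a ratio of 1.89, and from 0.453% ± 0.0673 to 0.538% ± 0.0109 in the EVs, a ratio of 1.19 (SD, n = 3 each). In bulk RNA of this kind, a change in the number of EVs that carry a transcript and a change in copies per EV cannot be told apart. Under equal totals 16 of the 69 passed downward, and with the near-silent density subtracted and totals made equal 5 did, with a list median of -0.38 and -0.81.

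**Figure D1:**
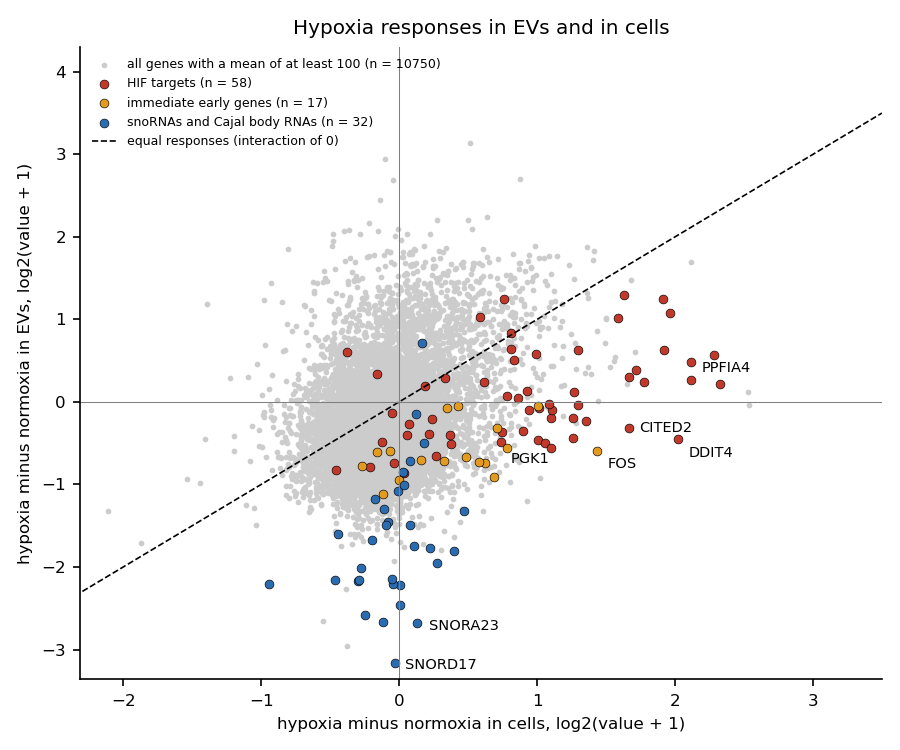
Hypoxia response in the EVs (y axis) against that in the cells (x axis), both as differences of log2(value + 1), for 10750 genes with a mean of at least 100 (grey), with HIF targets (red), immediate early genes (orange) and snoRNAs with Cajal body RNAs (blue). HIF targets spread to the right of 0 and mostly below the dashed line of equal responses, and snoRNAs lie near 0 on the x axis and far below 0 on the y axis.

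Among the 58 HIF targets matched to the RefSeq promoter table, the promoters of the 4 with the smallest interaction p are shown because ACGTG is a core that HIF binds. Each runs from 250 bases before to 50 after the start of the gene in RefSeq (GRCh38.p14), 5′ to 3′ on the strand of the gene, with the core in capitals as found on either strand (CACGTG holds it on both).
DDIT4, chr10:72273674-72273973, plus strand: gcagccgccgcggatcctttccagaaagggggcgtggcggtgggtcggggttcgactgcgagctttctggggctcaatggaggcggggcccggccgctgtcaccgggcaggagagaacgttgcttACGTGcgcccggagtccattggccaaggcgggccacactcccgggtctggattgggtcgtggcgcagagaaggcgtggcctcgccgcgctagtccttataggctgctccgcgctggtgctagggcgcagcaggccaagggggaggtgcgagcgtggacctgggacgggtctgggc
CITED2, chr6:139374599-139374898, minus strand: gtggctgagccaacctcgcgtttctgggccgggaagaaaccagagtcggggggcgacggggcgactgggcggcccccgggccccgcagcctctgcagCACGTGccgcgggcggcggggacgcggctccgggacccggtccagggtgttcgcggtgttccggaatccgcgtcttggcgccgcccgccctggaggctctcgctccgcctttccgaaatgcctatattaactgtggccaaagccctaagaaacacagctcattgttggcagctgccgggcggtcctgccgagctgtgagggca
PPFIA4, chr1:203026241-203026540, plus strand: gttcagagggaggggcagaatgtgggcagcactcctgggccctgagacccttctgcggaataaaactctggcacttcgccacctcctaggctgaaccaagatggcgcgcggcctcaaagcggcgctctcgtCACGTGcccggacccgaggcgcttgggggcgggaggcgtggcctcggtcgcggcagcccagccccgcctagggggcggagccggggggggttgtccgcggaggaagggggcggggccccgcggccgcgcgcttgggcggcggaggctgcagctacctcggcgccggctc
STC2, chr5:173328365-173328664, minus strand: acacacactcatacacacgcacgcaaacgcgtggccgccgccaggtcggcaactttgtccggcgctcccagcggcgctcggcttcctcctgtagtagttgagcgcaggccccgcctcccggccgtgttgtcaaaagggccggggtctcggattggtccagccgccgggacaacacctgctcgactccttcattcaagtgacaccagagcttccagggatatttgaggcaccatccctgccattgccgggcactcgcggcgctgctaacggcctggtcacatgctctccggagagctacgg
The DDIT4 window held 1 match, those of CITED2 and PPFIA4 2 each (a single CACGTG in either case), and that of STC2 held 0. Of 35116 RefSeq promoters of this length 21.4% held the core, and of the 58 HIF targets with a listed promoter 56.9% did. The share was 60% among the 20 with a lower interaction and 55.3% among the 38 not called, so the core was about as frequent in both. A match describes letters and is not a binding site shown here. Only ACGTG was searched, and no other form of the core was counted.

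Among the genes for mitophagy and cell death, all 4 lay below 0 and 3 passed downward. DDIT4, an inhibitor of mTOR signalling, had values of 177, 163 and 228 in normoxia cells and 804, 760.0 and 732 in hypoxia cells. In normoxia EVs it had 421, 309.9 and 235, and in hypoxia EVs 298, 175 and 232. The cell groups did not overlap and the EV groups did. Its interaction was -2.47 (SE 0.32, limma adjusted p = 0.00154), made of a cell response of 2.02 and an EV response of -0.44 (adjusted p = 0.274 for the latter). BNIP3, a mitophagy receptor of the outer mitochondrial membrane, had 888, 827 and 861 in normoxia cells and 2720.5, 2758 and 2707 in hypoxia cells. Its EV values were 459, 622 and 330.3 in normoxia and 695, 509 and 502 in hypoxia, which overlap. The interaction was -1.36 (SE 0.27, limma adjusted p = 0.0165). The related receptor BNIP3L had an interaction of -1.59 (limma adjusted p = 0.00781), and FAM162A one of -0.81 that did not pass.

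In the group of oxygen sensing and feedback, 2 of 8 passed downward. CITED2 competes with HIF for the coactivators p300 and CBP and so limits the response. It had 558, 557 and 575 in normoxia cells and 1916, 1734 and 1728 in hypoxia cells, with 1370.2, 1452 and 766 in normoxia EVs and 874, 1015 and 898 in hypoxia EVs. The interaction was -1.98 (SE 0.27, limma adjusted p = 0.00171). The lowest normoxia EV value, of replicate 3, lay under all 3 hypoxia EV values, and the other two lay above them. EGLN1, a prolyl hydroxylase that marks HIF alpha, also passed (-1.47, limma adjusted p = 0.0108). Its relative EGLN3 had a cell response of 0.78 and an interaction of -0.71 that did not pass, and HIF1A itself fell in the cells (-0.46) with an interaction of -0.37 (limma adjusted p = 0.38).

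Of the 9 secreted factors 3 passed downward, and the list was mixed: 5 lay below 0, and its median was -0.02. VEGFA, the main growth factor of blood vessels, had 677, 779 and 698 in normoxia cells and 1577, 1546 and 1495 in hypoxia cells. In EVs it had 1296, 1119 and 1139 in normoxia and 983, 1052 and 1069 in hypoxia. Every hypoxia EV value was thus under every normoxia EV value, while the cell values were higher in hypoxia throughout. The interaction was -1.29 (SE 0.19, limma adjusted p = 0.00284), with an EV response of -0.19 that did not pass. STC2, a secreted glycoprotein hormone, had 799, 771 and 804 in normoxia cells and 1949, 1938 and 1956 in hypoxia cells. Its EV values, 1154, 766 and 1003 in normoxia and 966, 991 and 847 in hypoxia, overlapped, and the interaction was -1.34 (SE 0.22, limma adjusted p = 0.00574). ADM, the vasodilator peptide adrenomedullin, had an interaction of -1.55 (SE 0.32, limma adjusted p = 0.0214). EPO, EDN1 and IGFBP3, which had positive interactions, were low, with means of 14.0 to 40.5 over the 12 libraries, and none of the 3 passed.

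**Figure D2:**
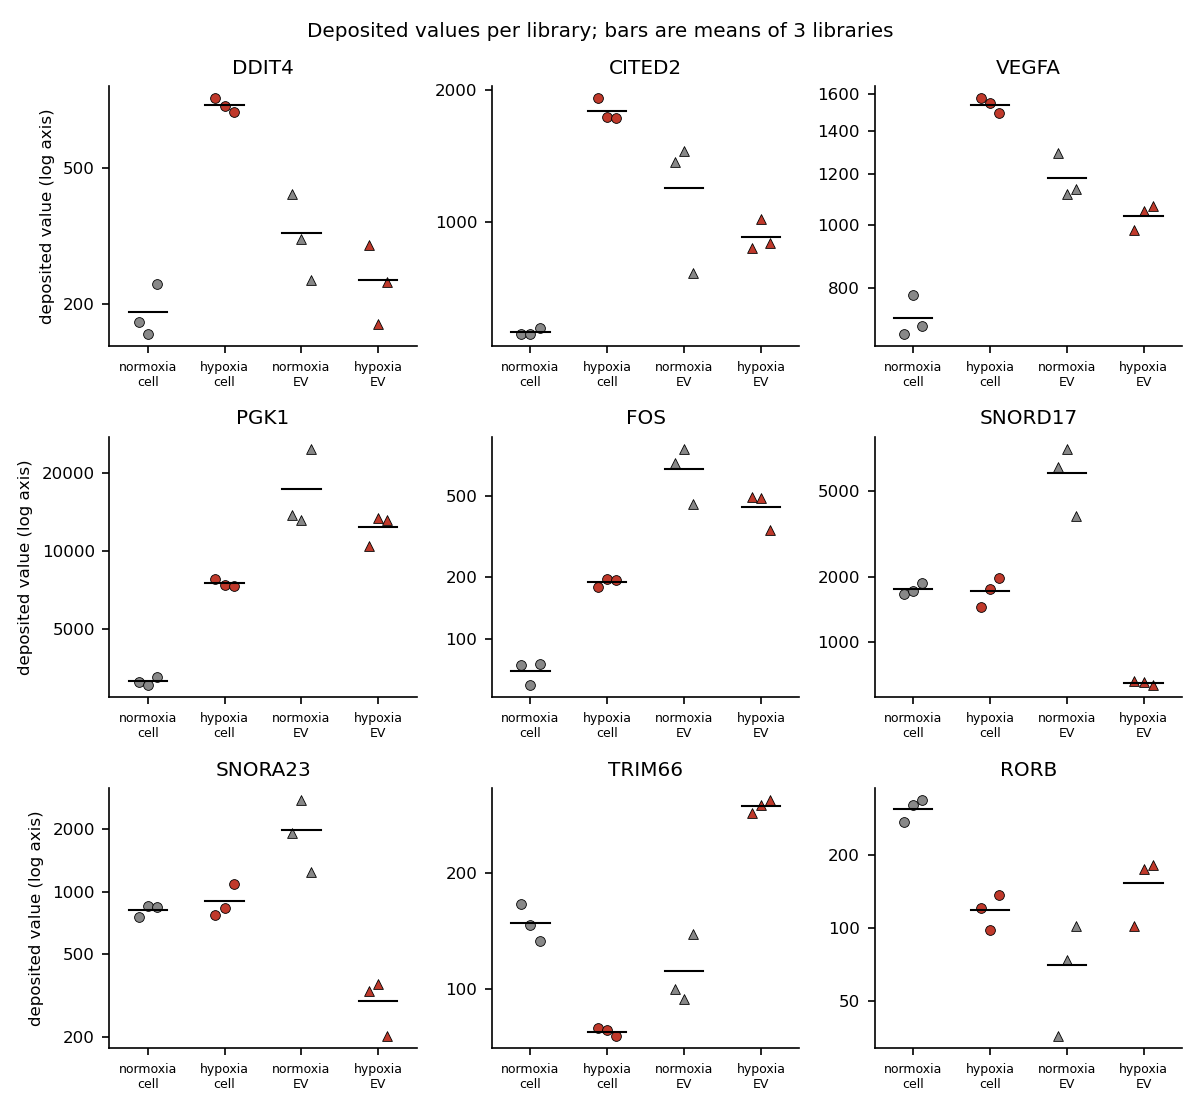
Deposited values (log axis) of 9 genes in each library, with circles for cells, triangles for EVs, grey for normoxia, red for hypoxia and bars for means of 3 libraries. DDIT4, CITED2, VEGFA, PGK1 and FOS are higher in hypoxia cells than in normoxia cells and not so in EVs, SNORD17 and SNORA23 are lower in hypoxia EVs alone, and TRIM66 is lower in hypoxia cells and higher in hypoxia EVs.

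All 20 members for glucose uptake and glycolysis had an interaction below 0, and 8 passed downward (40%). Of all genes tested 41.6% lay below 0, and of those with a mean of at least 100 68.5% did, where 4.16% passed downward. PGK1, the first ATP-forming enzyme of glycolysis, had 3115, 3011 and 3235 in normoxia cells and 7754, 7354 and 7339 in hypoxia cells. In EVs it had 13792, 13222 and 24839.7 in normoxia and 10409, 13411 and 13220.5 in hypoxia, where the third normoxia library stood far above the rest. Its interaction was -1.69 (SE 0.28, limma adjusted p = 0.00578). LDHA, which turns pyruvate into lactate, went from 7232, 7532 and 8210.4 to 15556, 14225 and 14258 in cells, and had 1392, 1176 and 792 in normoxia EVs and 909.7, 974 and 1195 in hypoxia EVs. Its interaction of -1.04 (SE 0.25, limma adjusted p = 0.0358) was carried by the cells, since the EV groups overlapped. SLC2A1, the glucose transporter GLUT1 (-1.15), ALDOA (-1.25), PFKFB4 (-1.72), PFKFB3 (-1.11), TPI1 (-0.93) and HK2 (-0.80) passed as well. PDK1, the kinase that keeps pyruvate out of mitochondria, had a cell response of 1.71 and an EV response of 0.38, and its interaction of -1.33 did not pass (limma adjusted p = 0.111). ENO2 and SLC2A3 rose in the cells and had EV responses of 1.01 and 1.24, of which that of ENO2 passed and that of SLC2A3 did not (limma adjusted p = 0.0427 and 0.112). Over the 21 glycolytic enzymes, isoforms of other tissues included, 6 passed downward and 0 upward, with a median of -0.74. PGK1, LDHA and other glycolytic mRNAs have processed pseudogenes, so their values are uncertain: the sources used here do not say how such reads were assigned.

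Matrix hydroxylases, which mature collagen, passed in 1 of 6 cases (P4HA1, -1.30, limma adjusted p = 0.0425). LOX and P4HA2 rose in the cells by 1.63 and 0.99, with EV responses of 1.30 and 0.58 that did not pass, and their interactions were -0.33 and -0.41. Of 22 genes of pH control, lipid storage and other intracellular roles 8 passed downward. PPFIA4, a liprin scaffold protein, had 358, 327 and 267 in normoxia cells and 1355, 1388 and 1362 in hypoxia cells, against 1059, 661 and 688 in normoxia EVs and 915, 1031 and 890.3 in hypoxia EVs. Its interaction was -1.85 (SE 0.25, limma adjusted p = 0.00171), and its EV groups overlapped. HILPDA, a lipid droplet protein, went from 91.6, 101 and 108 to 565, 496 and 462 in cells, with 71.4, 52.2 and 48.9 in normoxia EVs and 98.9, 82.2 and 35.3 in hypoxia EVs. The interaction was -2.11 (SE 0.45, limma adjusted p = 0.0243). The stress gene NDRG1 (-1.08), the circadian repressors BHLHE40 (-1.63) and BHLHE41 (-1.45), the histone demethylase KDM3A (-1.21), ANKZF1 (-1.22) and the MYC antagonist MXI1 (-1.11) also passed. CA9, the tumour carbonic anhydrase, had at most 6.49 in any cell library and 7.57 to 40.1 in EVs, and its interaction of -2.72 had an SE of 1.13 and did not pass (limma adjusted p = 0.179).

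Genes that rose in the cells were not uniformly absent from the EV response. Of 80 genes with a mean of at least 100 and a called cell rise of at least 1 on the log2 scale, 15 rose and 1 fell in the EVs, and 73.8% had an EV response above 0, beside 25.6% of all 10750 genes of that level. Their median was 1.28 in cells and 0.49 in EVs, where the median of all such genes was -0.42. For all 781 genes of that level with a called rise in cells, 61 rose and 82 fell in the EVs, with a median EV response of -0.08. Among all 10750 genes of that level 356 (3.31%) rose and 1779 (16.5%) fell in the EVs. Across the 10750 genes the cell and EV responses, which share no library, had a Pearson correlation of 0.327 and a Spearman correlation of 0.256. Genes are not independent replicates, and this is a description. Outside the HIF list, EPS8L2, an actin regulator, had 23.7, 19.3 and 29.8 in normoxia cells and 149, 161 and 121 in hypoxia cells. It had 167, 202 and 178 in normoxia EVs and 202, 178 and 212 in hypoxia EVs, so that EVs held it at a hypoxic cell level in both conditions, and its interaction was -2.41 (SE 0.37, limma adjusted p = 0.00415).

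Immediate early genes, which encode transcription factors and phosphatases switched on within minutes of a stimulus and whose mRNAs decay fast, held many lower calls. This list, too, was chosen with earlier results of these data known. All 20 were tested, 10 passed downward (50%, against 1.87% of all genes) and 0 upward in limma, edgeR or DESeq2 or at an unadjusted p under 0.05, 19 lay below 0 and the median was -1.01. The lower calls numbered 11 in edgeR and in DESeq2, 5 under equal totals and 5 with the near-silent density also subtracted. In the cells 9 rose and 1 fell (4.99% and 14.2% of all genes). In the EVs 0 rose and 6 fell (5.04% and 7.42% of all genes). Of the 17 with a mean of at least 100, 9 passed downward (52.9%) and 5 fell in the EVs. Of all genes of that level 4.16% passed downward and 16.5% fell in the EVs. FOS, a partner in the AP-1 factor, had 74.5, 59.0 and 75.1 in normoxia cells and 178, 195 and 194 in hypoxia cells. In EVs it had 726, 847 and 457 in normoxia and 492, 484 and 338 in hypoxia. The EV groups overlapped only through the third normoxia library. Its interaction was -2.04 (SE 0.33, limma adjusted p = 0.00574). JUN, the other AP-1 partner, went from 5336, 5396 and 6053 to 8668, 8697 and 8487 in cells and from 16556, 17319 and 11655 to 9626, 8785 and 8559.8 in EVs. Neither pair of groups overlapped and the directions were opposite, although the EV fall of -0.74 did not pass by itself (limma adjusted p = 0.0702). The interaction was -1.36 (SE 0.23, limma adjusted p = 0.00641). JUND (-1.61), ATF3 (-1.35), the MAP kinase phosphatase DUSP1 (-1.31), JUNB (-1.15), FOSL2 (-1.05), KLF10 (-1.02) and IER5 (-0.87) passed too. As shares of all RNA the 20 mRNAs had a hypoxia to normoxia ratio of 1.59 in cells and 0.921 in EVs.

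**Figure D3:**
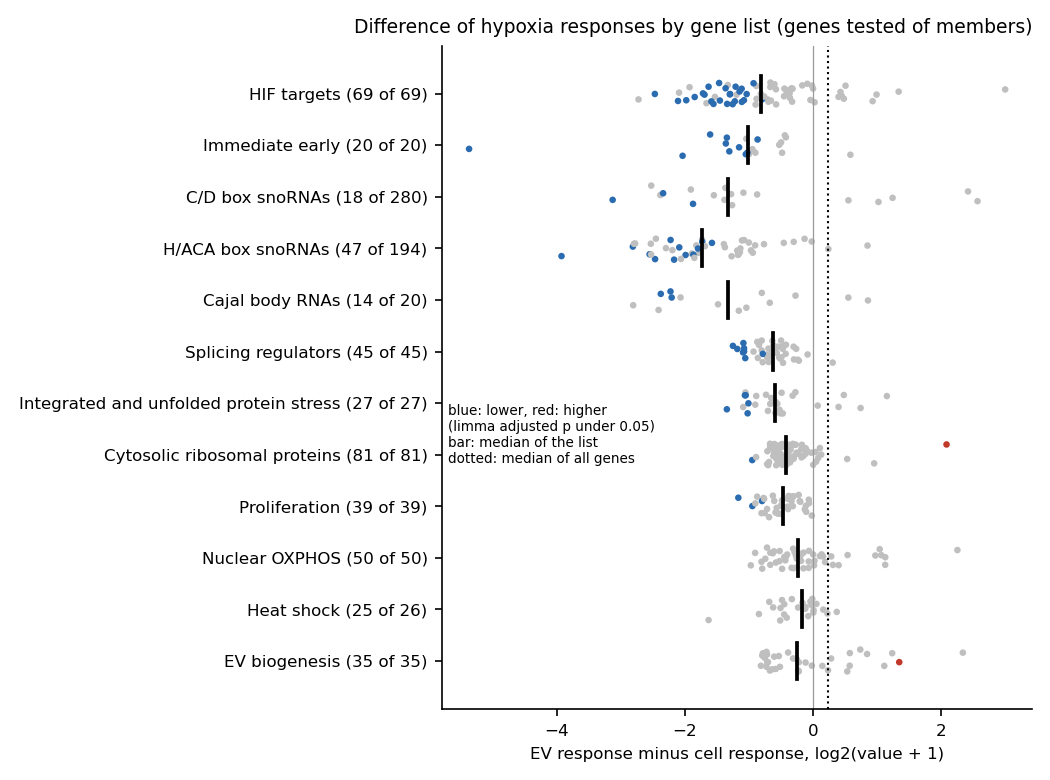
Interaction of each tested gene (EV response minus cell response, log2(value + 1)) by gene list, with the number tested of the members in brackets. Blue genes passed downward and red genes upward (limma adjusted p under 0.05), black bars are list medians, and the dotted line is the median of all 24171 genes. HIF targets and immediate early genes hold many blue points, and ribosomal proteins, OXPHOS and heat shock genes almost none.

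The most negative interaction among the 10750 genes with a mean of at least 100 was that of SNORD17, a small nucleolar RNA (snoRNA). Such RNAs guide the chemical modification of ribosomal RNA within the nucleolus. C/D box snoRNAs direct 2′-O-methylation and H/ACA box snoRNAs pseudouridylation. Of 280 C/D box genes 18 passed the filter on low values and of 194 H/ACA box genes 47 did, so these are not all members. The sum over all 280 C/D box genes went from 0.0654% ± 0.00413 to 0.0693% ± 0.0140 of RNA in cells and from 0.180% ± 0.0726 to 0.0690% ± 0.0230 in EVs (SD, n = 3 each). The sum over all 194 H/ACA box genes went from 0.0830% ± 0.00512 to 0.0916% ± 0.0168 in cells and from 0.131% ± 0.0360 to 0.0534% ± 0.00640 in EVs. The ratios were 1.06 and 1.10 in cells and 0.384 and 0.408 in EVs.

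The sequences of the snoRNA of each class with the most negative interaction among genes with a mean of at least 100 (GENCODE 29 transcripts, GRCh38, 5′ to 3′) are shown with the box letters in capitals: TGATGA of the C box and every CTGA, the letters of the D box, in the first, and ACA of the box that stands 3 bases before the end in the second.
SNORD17, chr20:17962710-17962946, minus strand: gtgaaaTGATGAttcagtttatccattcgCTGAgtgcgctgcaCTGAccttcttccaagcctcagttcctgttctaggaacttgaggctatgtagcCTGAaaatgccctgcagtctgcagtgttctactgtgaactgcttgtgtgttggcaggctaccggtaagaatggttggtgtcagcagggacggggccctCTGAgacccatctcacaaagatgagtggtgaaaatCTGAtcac
SNORA23, chr11:9428773-9428954, plus strand: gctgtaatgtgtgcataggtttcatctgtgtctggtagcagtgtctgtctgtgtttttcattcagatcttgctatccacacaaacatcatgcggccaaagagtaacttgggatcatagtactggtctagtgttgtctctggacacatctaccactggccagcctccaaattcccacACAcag
Of the 280 C/D box genes 75% held TGATGA and of the 194 H/ACA box genes 65.5% held ACA at that place. SNORD17 had 1671, 1721 and 1887 in normoxia cells and 1454, 1766 and 1982 in hypoxia cells, which overlap. In EVs it had 6458, 7841 and 3839 in normoxia and 659, 656 and 631 in hypoxia, far apart. The interaction was -3.13 (SE 0.28, limma adjusted p = 1.08e-05), with an EV fold of 0.112 and a cell fold of 0.979. SNORA23 had 755, 854 and 844 in normoxia cells and 778, 837 and 1089.8 in hypoxia cells, and 1915, 2767 and 1239 in normoxia EVs and 335, 362 and 202 in hypoxia EVs. Its interaction was -2.81 (SE 0.34, limma adjusted p = 0.000753). SNORA74B had 193, 227 and 229 and then 181, 218 and 201 in cells, and fell from 507, 721 and 537 to 102, 79.2 and 93.3 in EVs. Its interaction was -2.55 (SE 0.29, limma adjusted p = 0.000363). In all 3, EVs held more than cells in normoxia and less than cells in hypoxia. SNORD3B-1 and SNORD3C, 2 of the near-identical U3 genes, had -2.34 and -1.87, SNORA71A had -1.80, and of the Cajal body RNAs SCARNA22 (-2.21), SCARNA7 (-2.22) and SCARNA8 (-2.38) passed. Many snoRNAs lie in introns of host genes or have near-identical copies, so their single values are uncertain.

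Other small RNAs and nuclear RNAs followed in part. The U4 spliceosomal RNA genes RNU4-2 (-1.63) and RNU4-1 (-1.64), near-identical to each other, and RMRP, the RNA of RNase MRP (-1.24), passed downward among 18 tested of 22 such RNAs. MIR3648-2, annotated as a miRNA gene with near-identical copies, fell in both compartments but further in EVs. It went from 25188, 19407 and 25472 to 12188, 17106 and 18980.5 in cells and from 12964, 16123 and 10357 to 2679.7, 1856 and 1740.2 in EVs, with an interaction of -2.10 (SE 0.29, limma adjusted p = 0.00189). Whether the reads of this gene came from a longer transcript was not tested. These libraries were made for long RNA and do not resolve a mature miRNA, whose RefSeq sequence is given with its seed (bases 2 to 8) in capitals to identify the gene.
hsa-miR-3648, chr21:8987026-8987046, plus strand, GRCh38.p14: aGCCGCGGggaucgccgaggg
MALAT1, a long noncoding RNA held in nuclear speckles, rose from 36708, 39826 and 30176 to 64762, 68733 and 67766 in cells. It fell from 37142, 25963 and 21032 to 7940.4, 14121 and 14908 in EVs, with no overlap in either. The interaction was -2.12 (SE 0.34, limma adjusted p = 0.00574). NEAT1, the scaffold of paraspeckles (-0.91), and the snoRNA host SNHG1 (-1.11) also passed among 21 nuclear-retained noncoding RNAs tested, whose median was -0.41.

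Splicing regulators belonged to the genes whose interaction came from the EV side. Of 45 tested, 36 fell in the EVs and 0 rose, 31 fell in the cells, 44 had an interaction below 0 and 8 passed downward (17.8%). All 45 had a mean of at least 100, and of the 10750 genes of that level 16.5% fell in the EVs, 30.5% fell in the cells, 68.5% lay below 0 and 4.16% passed downward. The lower calls of the list numbered 25 in edgeR, 26 in DESeq2, 4 under equal totals and 1 with the near-silent density also subtracted. LUC7L3, a U1 snRNP-associated factor, had 5833, 6121 and 6693 in normoxia cells and 5707, 6244 and 6471 in hypoxia cells. In EVs it had 16687, 10779 and 8762 in normoxia and 4593, 5065 and 4852 in hypoxia, without overlap, and its interaction was -1.25 (SE 0.26, limma adjusted p = 0.0214). SRSF11 (-1.08), SRSF4 (-1.08), DDX46 (-1.18), PRPF38B (-1.06), PNISR (-1.09), PRPF4B (-0.78) and CLK4 (-1.09) also passed, and 0 of the 12 hnRNP genes did. SAT1, the rate-limiting enzyme of polyamine breakdown, moved in opposite directions, from 423, 506 and 490.3 to 990.3, 908 and 981 in cells and from 680.3, 854 and 446 to 417, 347 and 259.8 in EVs. The groups did not overlap in either, and the interaction was -1.95 (SE 0.30, limma adjusted p = 0.0037). CBARP, a regulator of calcium channels, also rose in the cells and fell in the EVs (-1.90, limma adjusted p = 0.0134).

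Further lists are given by their counts, to be read against the 1.87% of all genes that passed downward in limma. Of 27 genes of the integrated and unfolded protein stress responses 5 passed downward, ATF3, SESN2 (-1.06), CEBPG (-1.01), PPP1R15A (-1.02) and CEBPB (-1.05), with a median of -0.59. In edgeR 14 of the 27 passed downward and in DESeq2 17, where 1479 and 1674 of all 24171 genes did. Of 25 cholesterol synthesis genes 2 passed downward in limma, among them SQLE, which makes squalene epoxide (-1.44). In edgeR and in DESeq2 7 of the 25 passed downward, and 1 passed upward in DESeq2. Of 39 proliferation genes KIF20B (-1.17), NUSAP1 (-0.95) and BUB1 (-0.80) passed in limma, against 10 lower in edgeR and 13 in DESeq2. Of 81 cytosolic ribosomal protein genes RPS19 passed downward (-0.95) and RPL36A upward in limma, 9 passed downward in edgeR and 14 in DESeq2, and the list median of -0.42 turned to 0.02 under equal totals and to 0.17 with the near-silent density also subtracted. Of 32 genes of the MYC network and nucleolar biogenesis MXI1 alone passed in limma (4 lower in edgeR and in DESeq2). Of 35 EV biogenesis genes the tetraspanin TSPAN14 alone passed in limma, upward (1.34), and 5 passed downward in edgeR and 6 in DESeq2. None of 50 nuclear OXPHOS genes passed in limma (12 at an unadjusted p under 0.05, 5 in edgeR, 7 in DESeq2), with a median of -0.23. The same held for 25 heat shock genes (4, 2 and 3 by the same counts), 28 histone genes (7, 1 and 2), 30 interferon response genes (5, 0 and 1) and 7 HEK293 markers (1, 0 and 0), with medians of -0.17, -0.10, 0.38 and -0.12. Of 7 blood markers and 4 keratins tested 0 passed in limma, edgeR or DESeq2 (0 and 2 at an unadjusted p). The construct genes did not pass in limma: EIF4E had an interaction of -0.78 (SE 0.57), YTHDF1 of -0.76 (SE 0.52) and CD9 of -0.73 (SE 0.39). All 3 passed downward in edgeR and in DESeq2, and the EV groups did not overlap for any of them. Their reads took 6.13% and 7.09% of cell RNA and 23.5% and 21.7% of EV RNA in normoxia and hypoxia, and plasmid and chromosomal transcripts cannot be told apart here.

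Upward calls were fewer and of lower genes. TRIM66, a chromatin-associated TRIM protein, had 166, 146 and 133 in normoxia cells and 79.0, 77.7 and 75.0 in hypoxia cells. In EVs it had 99.9, 93.7 and 139 in normoxia and 286, 301 and 310.2 in hypoxia, and neither pair of groups overlapped. Its interaction was 2.37 (SE 0.33, limma adjusted p = 0.00181), with a fall in the cells and a rise in the EVs that both passed. RORB, an orphan nuclear receptor, fell from 273, 320.2 and 338 to 121, 97.8 and 136 in cells and had 35.7, 73.9 and 102 in normoxia EVs and 102, 175 and 182 in hypoxia EVs. The interaction was 2.57 (SE 0.46, limma adjusted p = 0.0108). GSTZ1, an enzyme of tyrosine breakdown, had 171, 172 and 151 and then 149, 181 and 161 in cells. It rose from 54.7, 45.0 and 93.8 to 227, 318 and 259.8 in EVs, with an interaction of 2.10 (SE 0.37, limma adjusted p = 0.0108). BTN3A2 (2.51), ENTPD5 (2.45), PRTG (2.38), ZNF814 (2.23), DNAH9 (2.10), RPL36A (2.08) and ELOVL6 (2.03) complete the 10 protein-coding genes named by size. DNAH9, an axonemal dynein with a long transcript, had 23.1 to 42.3 in cells, 145, 148 and 276 in normoxia EVs and 586, 586 and 610.3 in hypoxia EVs. LINC00649 (1.93), TSIX (1.91) and PCBP1-AS1 (1.49) were the noncoding genes, each antisense to or overlapping another gene, and the sources used here do not give the strand setting. Among marker genes of the liver list TF, the serum transport protein transferrin, had 15.2 to 33.1 in cells, 54.7, 32.4 and 52.8 in normoxia EVs and 175, 210.1 and 224 in hypoxia EVs (2.42, limma adjusted p = 0.0373). With the near-silent density subtracted and totals made equal, TRIM66, GSTZ1, BTN3A2 and DNAH9 of the 10 still passed, and the others did not. RORB (3.45, SE 1.70), ENTPD5 (2.41, SE 1.99), ELOVL6 (2.19, SE 2.66) and RPL36A (1.99, SE 1.99) kept values near or above those given, with wider errors. PRTG came to 0.13, ZNF814 to 0.09 and TF to 0.00. Of the noncoding genes LINC00649 came to 0.53, TSIX to 0.07 and PCBP1-AS1 to -1.20, and none of them passed.

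Under the deposited scaling the direction of the summed change in EVs, relative to cells, followed the level of the genes in the cells. Over 3982 protein-coding genes with a cell mean under 5, taken without a filter, the summed level per kb went from 0.667 ± 0.0732 to 0.870 ± 0.0837 in cells and from 5.75 ± 2.74 to 12.9 ± 0.497 in EVs (SD, n = 3 each), an EV change larger by 0.79 on the log2 scale. Over the 2197 genes of the highest level it went from 381 ± 15.0 to 342 ± 4.56 in cells and from 445 ± 82.6 to 266 ± 3.86 in EVs, an EV change lower by -0.58. The bins between gave 0.77, 0.47 and -0.26. Deposited totals were 1.03e+07 to 1.41e+07 in normoxia EVs and 8.19e+06 to 8.38e+06 in hypoxia EVs. In cells they were 1.06e+07 to 1.13e+07 in normoxia and 9.77e+06 to 1.01e+07 in hypoxia. The bins were not computed at equal totals. In the fit at equal totals the median interaction was 0.66 over all genes and 0.17 over those with a mean of at least 100. Without normoxia EV replicate 3 the lowest and the highest bin gave 1.23 and -0.72. Of the protein-coding calls 221 lower and 0 higher were in the top bin, and 0 lower and 1 higher in the bottom one. HIF targets were not compared with genes of matched level.

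**Figure D4:**
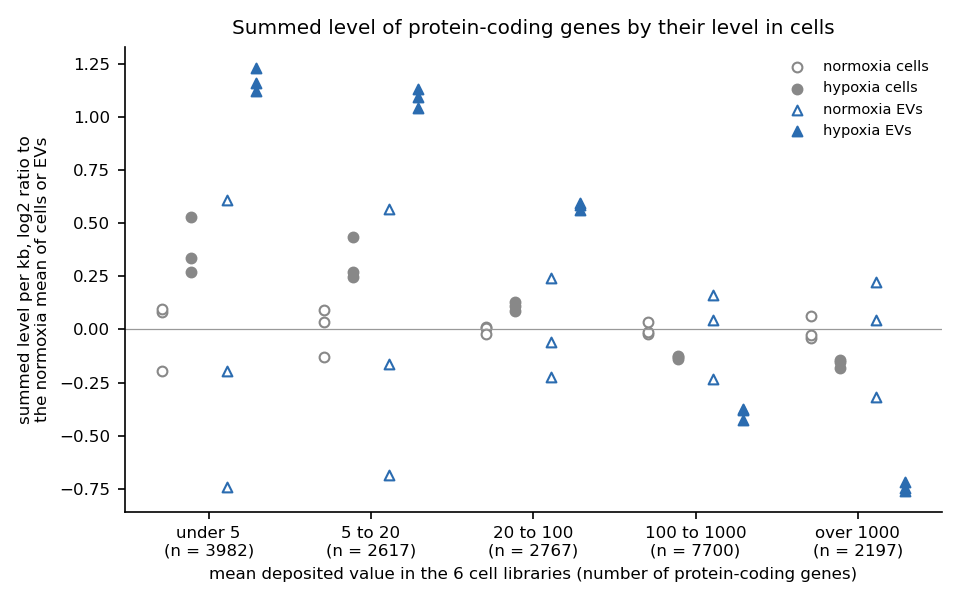
Summed level per kb of all protein-coding genes in 5 bins of their cell level (x axis), as the log2 ratio to the normoxia mean of cells or EVs (y axis), with a point for each library. Hypoxia EVs lie above normoxia EVs in the 3 lower bins and below them in the top 2, and cells change in the same order by less.

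Of the 452 lower calls 73 passed in the same direction under all 5 scalings: the deposited one, TMM factors, equal totals, subtraction of the near-silent density, and subtraction with equal totals. Of the 107 higher calls 28 did. The 73 held 5 HIF targets (DDIT4, CITED2, PPFIA4, VEGFA and BNIP3L), the AP-1 group genes FOS, JUN, JUND and ATF3, the snoRNAs SNORD17, SNORA23, SNORA74B and SNORD3B-1, and SCARNA22, MALAT1, LUC7L3, SAT1, EPS8L2 and MIR3648-2. Of the 62 named genes past the threshold 17 also passed in each of the 12 fits that left out a library: CITED2, DDIT4, PPFIA4, VEGFA, PGK1, EPS8L2, FOS, JUN, JUND, SAT1, MALAT1, SNORD17, SNORA23, SNORA74B, SNORD3B-1, MIR3648-2 and TRIM66. The scalings moved the median of all genes from 0.23 to 0.04 (TMM), 0.66 (equal totals), -0.45 (density subtracted) and 0.05 (subtracted, equal totals), and the median of the HIF list relative to it was -1.04, -1.04, -1.04, -0.99 and -0.86 in these 5 settings. The gap was narrower among genes with a mean of at least 100. There the 58 HIF targets had medians of -0.88, -1.07, -0.44, -1.44 and -0.81. All 10750 genes of that level had -0.27, -0.45, 0.17, -0.79 and -0.14. The splicing list had medians of -0.63 and, with density subtracted and equal totals, -0.12. In the latter setting all genes had 0.05 and those with a mean of at least 100 had -0.14.

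**Figure D5:**
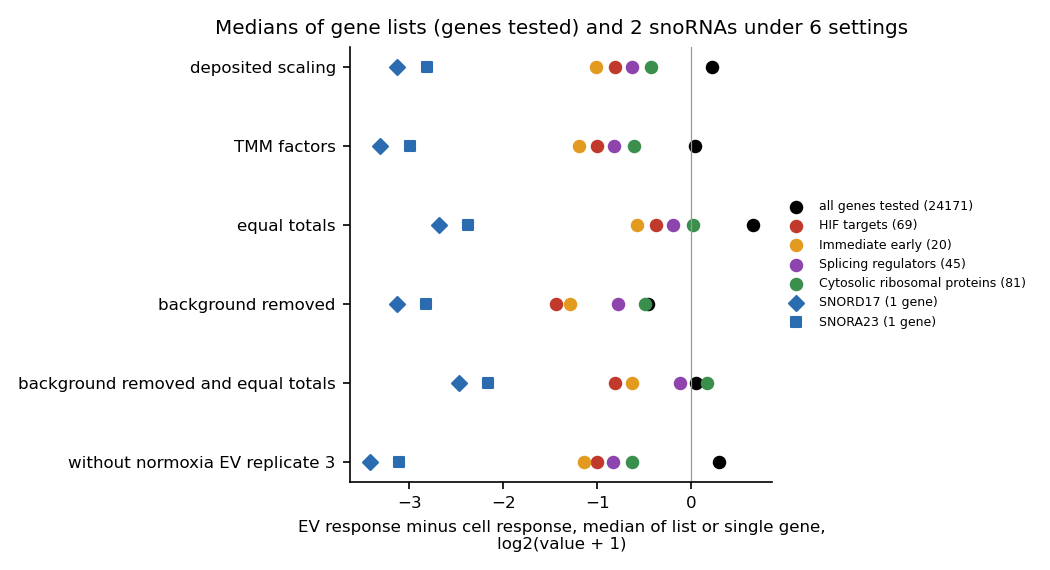
Interaction under 6 settings (y axis) for the median of all genes (black), of 4 gene lists and for the snoRNAs SNORD17 and SNORA23 (x axis, log2(value + 1)). The medians shift with the scaling by unequal amounts, and HIF targets, immediate early genes and both snoRNAs stay below 0 in all 6.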

How the data were processed

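The values are a signal per gene: the deposited table holds read counts that the authors divided by a single factor per library, read from the values themselves, since 100% of them were whole multiples of the library's step within 0.01. Per the submitters' processing notes the builds were GRCh38 and hg38 and the tools DESeq2 1.30.1 and Bowtie 0.12.2, with no role given. The sources used here do not give the counter, annotation, strand setting or filters. A read was worth 0.481 to 0.551 units in cells and 1.34 to 2.52 in EVs, and a count of 0 allows up to 3 reads (counting error only, no molecular identifiers). Of 57773 gene IDs 52338 matched GENCODE 29, which gave names, types and lengths.

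The interaction was fitted on log2(value + 1) over all 12 libraries with limma-trend (limma 3.58.1, R 4.3.3), and each response over its own 6 libraries, on the 24171 genes with a mean of at least 10. The 12-library fit pools the spread of cells and EVs, so the interaction SE can be smaller than that of the EV response it contains. This held for JUN (0.23 against 0.27) and not for TRIM66 (0.33 against 0.31). Calls such as that of JUN rest in part on the smaller spread of the cells. For EIF4E the SE was 0.57 against 2.03. Its EV values had means ± SD of 1.37e+06 ± 3.22e+05 in normoxia and 8.35e+05 ± 7.93e+04 in hypoxia. An SE of 2.03 on log2(value + 1) is wider than that spread, and its source was not tested. Fold changes on that scale understate the change of low genes. p-values were adjusted by Benjamini-Hochberg over all genes, with a threshold of 0.05. The script was tested on simulated data. edgeR 4.0.16 and DESeq2 1.42.0 on the recovered whole reads, group weights, TMM factors, equal totals, pseudocounts of 0.5 or 5, no filter or one at a mean of 50, replicate blocks, subtraction of a density (that of near-silent genes times gene length) and leaving out each library were alternatives. Subtraction with equal totals was chosen after seeing the data.

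Named per direction were the 10 protein-coding and up to 5 noncoding called genes (mean over 12 libraries 100 or more) whose absolute value less 1.96 SE was largest. To these came 15 fixed genes and, for every list, at most 3 members by lowest p. STC2, other list members named with values, and the genes that passed under all scalings were named after their values were seen. Members and lists were chosen with earlier results of these data known. Promoters and the miRNA came from RefSeq tables on GRCh38.p14, and 58 of 69 HIF targets matched a promoter. A few genes that the rule or the lists hold are not reported here.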

Additional observations from a re-analysis of the deposited data

Results flagged for a closer look

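For 62 named genes the hypoxia response of EVs differed from that of cells by the test of the interaction itself (limma adjusted p under 0.05), which is what sets them apart here. The values of those reported here are EV response minus cell response on the log2(value + 1) scale. Among HIF targets these were DDIT4 (-2.47), CITED2 (-1.98), PPFIA4 (-1.85), HILPDA (-2.11), PGK1 (-1.69), ADM (-1.55), BNIP3 (-1.36), VEGFA (-1.29), ALDOA (-1.25), SLC2A1 (-1.15), MXI1 (-1.11), NDRG1 (-1.08) and LDHA (-1.04). Among immediate early and stress genes they were FOS (-2.04), JUND (-1.61), JUN (-1.36), ATF3 (-1.35), SESN2 (-1.06) and CEBPG (-1.01). Among small RNAs they were SNORD17 (-3.13), SNORA23 (-2.81), SNORA74B (-2.55), SNORD3B-1 (-2.34), SNORD3C (-1.87), SNORA71A (-1.80), SCARNA22 (-2.21), SCARNA7 (-2.22), SCARNA8 (-2.38), RNU4-2 (-1.63), RNU4-1 (-1.64), RMRP (-1.24) and, by its annotation alone, MIR3648-2 (-2.10), and among long nuclear RNAs MALAT1 (-2.12), NEAT1 (-0.91) and SNHG1 (-1.11). Other genes with a lower EV response were EPS8L2 (-2.41), SAT1 (-1.95), CBARP (-1.90), SRSF11 (-1.08), LUC7L3 (-1.25), DDX46 (-1.18), SQLE (-1.44), NUSAP1 (-0.95), KIF20B (-1.17), BUB1 (-0.80) and RPS19 (-0.95). A higher EV response was found for TRIM66 (2.37), RORB (2.57), BTN3A2 (2.51), ENTPD5 (2.45), PRTG (2.38), GSTZ1 (2.10), ELOVL6 (2.03), DNAH9 (2.10), RPL36A (2.08), ZNF814 (2.23), LINC00649 (1.93), TSIX (1.91), PCBP1-AS1 (1.49), TSPAN14 (1.34) and TF (2.42). The noncoding genes TSIX, LINC00649 and PCBP1-AS1 overlap other genes, and their values are uncertain without a known strand setting. All values listed here are of the deposited scaling. With the near-silent density subtracted and totals made equal, PRTG, ZNF814, TF, TSIX, LINC00649 and PCBP1-AS1 came to 0.13, 0.09, 0.00, 0.07, 0.53 and -1.20. TRIM66, BTN3A2, GSTZ1 and DNAH9 still passed there. RORB, ENTPD5, ELOVL6, RPL36A and TSPAN14 had 1.64 to 3.45 and did not pass.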

How the results depend on the processing

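The direction of all 452 lower and 107 higher calls was the same in each of the 12 fits that left out a library, and in every other alternative among those still tested, except the 2 with a density subtracted: there all 445 lower calls still tested kept it, and 93 of 104 higher ones. These genes were called on the same libraries, so a kept direction was largely fixed in advance. Of the named genes PCBP1-AS1 reversed, to -1.19 with the density subtracted and -1.20 with subtraction and equal totals. Counts of calls moved more. The higher interaction calls numbered 239 with a pseudocount of 5, 19 with no filter, 475 with equal totals, 185 in edgeR, 515 in DESeq2, 223 with group weights, 236 with the density subtracted and 404 with subtraction and equal totals. The lower ones numbered 735 with a filter of 50, 86 with no filter, 1607 with TMM factors, 151 with equal totals, 1479 in edgeR, 1674 in DESeq2, 1119 with group weights, 1727 with the density subtracted and 680 with subtraction and equal totals. Lower HIF targets numbered 11 with no filter, 16 with equal totals and 5 with subtraction and equal totals. Higher cell calls numbered 451 with no filter, 2012 with equal totals and 600 with the density subtracted, and lower ones 1387, 1789 and 2272, and 1017 with subtraction and equal totals. Higher EV calls numbered 795 and 2449 with pseudocounts of 0.5 and 5, 0 with no filter, 3384 with equal totals, 2143 with group weights, and 109 and 133 with subtraction without and with equal totals. Lower EV calls numbered 0 with no filter, 3206 with TMM factors, 173 with equal totals, 2888 in DESeq2, and 473 and 270 with subtraction without and with equal totals. With no filter 10135 of 52756 genes had an unadjusted limma p under 0.05 in EVs. Causes of these shifts were not tested. Leaving out each library gave 2 to 2338 higher and 34 to 3158 lower interaction calls, 6 to 39 lower HIF targets, 716 to 908 higher and 2485 to 2865 lower cell calls, and 0 to 5079 higher and 5 to 3975 lower EV calls, the highest of each but those of cells being without normoxia EV replicate 3. Replicate numbers showed no pairing in the check made: deviations of same-numbered libraries from their group means correlated by -0.117 to 0.0614. With 3 libraries in each group this check cannot exclude that same-numbered libraries shared a culture. With a replicate block there were 48 higher and 278 lower interaction calls and 2342 higher EV calls. With the replicate block within treatment, where each number would be a culture giving a cell and an EV library, there were 0 higher, 0 lower and 0 lower HIF targets in limma, and 3320 genes at an unadjusted p under 0.05. EV libraries held fewer reads than cell libraries, which limits what can be seen for low genes.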

Other observations

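The 73 genes with a lower interaction under all 5 scalings included genes that no list held. Those below were picked after their values were seen and stand for no group. TFRC, the transferrin receptor, had a cell response of 0.84 and an EV response of -0.52 (interaction -1.36, limma adjusted p = 0.00578), and ALAS1, the first enzyme of heme synthesis, had 0.73 and -0.61 (interaction -1.34, limma adjusted p = 0.0058). The histone methyltransferase DOT1L had an interaction of -1.36, KMT2E of -1.21, the acetyltransferases KAT6A and CREBBP of -0.995 and -0.954, the cohesin subunit SMC1A of -0.97 and the maintenance methyltransferase DNMT1 of -0.91. For CREBBP, KAT6A and DNMT1 the cell responses were 0.03, 0.07 and -0.05 and the EV responses -0.93, -0.92 and -0.96. COL7A1 and COL6A2 had cell responses of 1.44 and 0.62, EV responses of 0.02 and -0.83, and interactions of -1.43 and -1.45.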
